A study of Terfezia claveryi
Helianthemum almeriense and Terfezia claveryi with 9 samples.

Results

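The 439 gene models described here are the models of the desert truffle Terfezia claveryi whose reads could mostly not be given to 1 model alone. The deposited tables list, for each gene model, its total gene reads and its unique gene reads, and the reads that are counted in the total but not as unique are called shared here. Models were chosen by these 2 counts: a model was included where its total over all 9 libraries was at least 100 reads and at least 50% of that total was shared. Of 12765 gene models in the tables, 11241 had a read and 9014 had at least 100 reads, so the 439 members were 4.87% of the models with enough reads. The rule used the summed total and unique reads, so the level of sharing itself is a description and supports nothing.

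Gene copies arise when a stretch of genome is duplicated, and recent duplicates can be identical over the whole transcript. A short read from such a transcript aligns equally well to each copy. Such reads may, for example, be dropped, counted for every copy or divided between the copies. Fungal genomes hold young gene families and transposable elements, mobile DNA segments that copy themselves to other sites, and both give this kind of gene model. The files pair the models with no gene name or product, so the members are described by identifier or by length, nothing can be said of their function, and the fungal or root origin of a library could not be checked on named markers.

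The 9 RNA-seq libraries fell into 3 groups of 3. T. claveryi, an ascomycete that forms edible truffles in dry soils and lives in symbiosis with the roots of the shrub Helianthemum almeriense, was grown as free mycelium of strain T7 in liquid MMNo medium in the dark at 23 °C and 75 rpm for 3 months. The other two groups were mycorrhizal roots of H. almeriense plants inoculated with T. claveryi spores at an age of 2 months and grown for 3 months before the treatment, either well-watered, with soil moisture above 75%, or under drought, with soil moisture lowered to 40% until shoots reached a water potential under -2 MPa. Samples of 100 mg of mycelium or of secondary and tertiary roots gave the RNA, sequenced as pairs of 75 bases. The comparisons therefore ask how the fungus in roots differs from the fungus in culture, and how the fungus in roots differs between the 2 watering regimes.

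The files count reads in fungal gene models only, and the depth followed the group. The cultures held 15855363 to 31854784 total gene reads, the well-watered roots 869998 to 1635015 and the drought roots 3493361 to 5470044. Cultures gave 82.6% of all reads and 83.7% of the members' reads, so the minimum of 100 reads leaned on the level in culture. A member without reads in a group met that minimum through the others alone, so its difference from that group partly follows from the rule. In roots, less fungus and less RNA per fungal cell cannot be told apart, and every level below is relative to the fungal reads of its own library. The cultures were 1 strain and the roots were inoculated with spores, so a model without reads in one of them may be silent there or absent from that genome, and these cannot be told apart.

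Sharing ran from the 50% minimum to all reads. For 141 members no read in any library was unique, and these are called wholly shared below. The other 298, called partly shared, had at least 1 unique read: 50 members had at least 90% of their reads shared, 90 had from 75% up to 90%, and 158 had from 50% up to 75%. The median member had 85.3% of its reads shared. Among the 8575 other models with at least 100 reads, 7468 had no shared read and 8163, or 95.2%, had under 5% shared. Only 177 of those others had from 25% up to 50%, so few models lay close under the minimum.

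**Figure D1:**
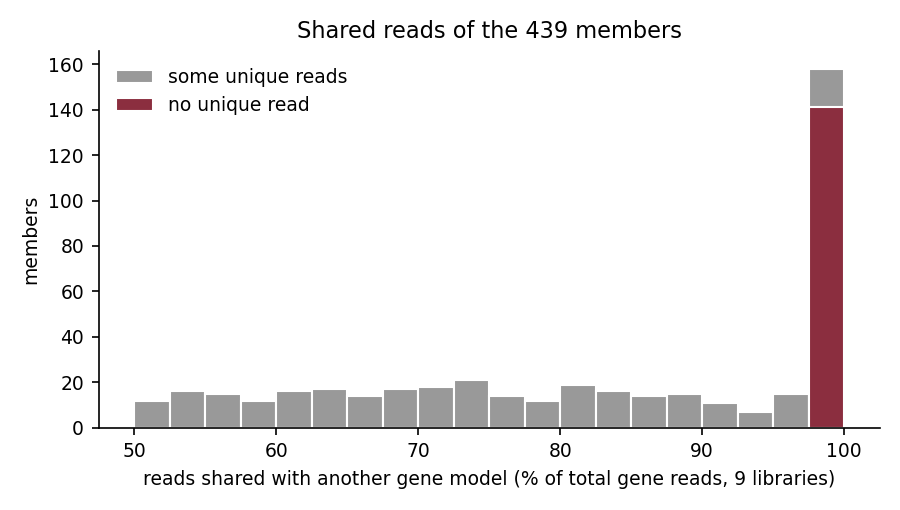
Histogram of the share of total gene reads that were shared (x axis, % over 9 libraries) for the 439 members (y axis, number of members per bin of 2.5 points). The dark block at the right end holds the 141 members without a unique read, and the rest spread between 50% and 100%.

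Just inside the limit on sharing lay a model of 1710 bases with 50.1% of 383 reads shared and a model of 4476 bases with 50.3% of 18584 reads shared. Just outside lay a model of 1625 bases with 49.4% of 10608 reads shared and a model of 2142 bases with 49.5% of 30605 reads shared. On the limit of total reads, a model with 102 reads was kept and a wholly shared model with 98 reads was left out. A further 285 models were at least 50% shared but had fewer than 100 reads.

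The members were close to other models in length and lower in RPKM. Lengths were solved from the deposited RPKM values, reads per kilobase of model and per 1000000 reads. The median length was 1271 bases for members, with a range of 213 to 7598, and 1295 bases for the others. Wholly shared members were shorter, with a median of 987 bases against 1471.5 bases for partly shared members, and 8 of the 11 members of at most 300 bases were wholly shared. The median RPKM of the members was 12.1 in culture, 13.4 in well-watered roots and 14.5 under drought, against 29.7, 25.4 and 30.8 for the other models. In the sets described below shared reads were divided between models, so the RPKM of such a member covers only its part of them. Members and other models are thus not compared on a like measure.

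Most members were read in every group. Reads were present in all 9 libraries for 258 members. No read was present in any culture for 6 members, of which 2 were read in all 6 root libraries. No read was present in any root library for 12 members, of which 4 had at least 100 reads in each culture. In single groups, 6 members had no read in cultures (1.37%), 30 in well-watered roots (6.83%) and 18 under drought (4.10%), against 0.327%, 2.23% and 1.75% of the other models. The order of these counts is the reverse of the order of depth.

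Members took a small part of each library that differed by group. They held 2.45%, 2.38% and 2.36% of all gene reads in culture, a mean of 2.40% ± 0.0443 (SD, n = 3). In well-watered roots they held 2.85%, 2.79% and 2.80%, a mean of 2.81% ± 0.0315 (SD, n = 3). In drought roots they held 2.03%, 2.01% and 2.08%, a mean of 2.04% ± 0.0340 (SD, n = 3). The 3 groups did not overlap: well-watered roots were highest and drought roots lowest. The difference is given without a test because it is a sum over members chosen with results of these data known.

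The partly shared members carried most of that difference. They held 1.75% ± 0.0132 of reads in culture, 2.12% ± 0.0479 in well-watered roots and 1.55% ± 0.0533 under drought (SD, n = 3 each). Wholly shared members held 0.649% ± 0.0321, 0.688% ± 0.0244 and 0.490% ± 0.0239 (SD, n = 3 each), and here cultures and well-watered roots overlapped. A few members weighed heavily, since the 10 members with the most reads in a library held on average 24.2% of the members' reads in culture, 29.5% in well-watered roots and 22.1% under drought. The 439 members held 70.3%, 74.0% and 69.1% of all shared reads in the 3 groups.

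**Figure D2:**
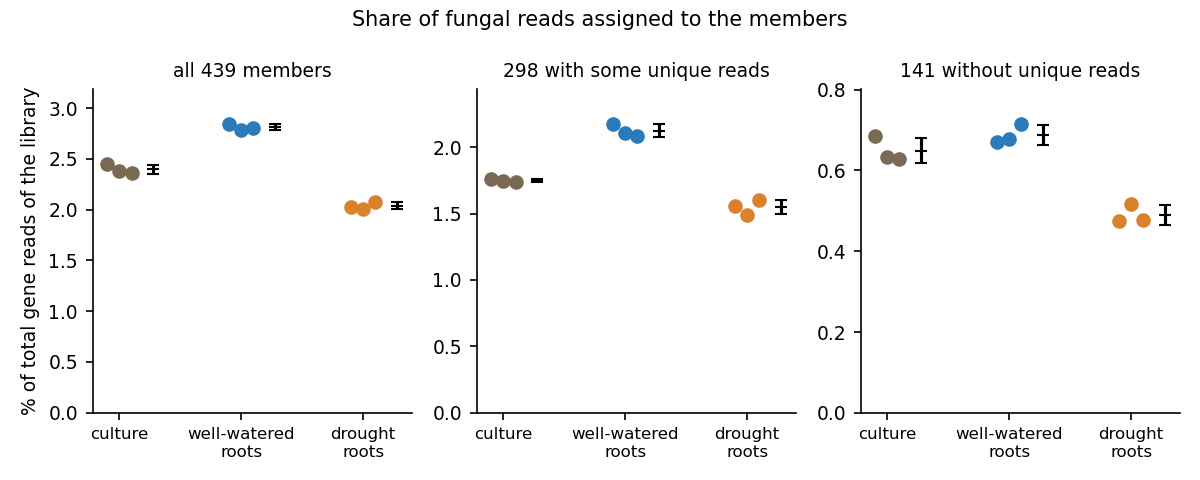
Share of a library's total gene reads (y axis, %) in all members, in partly shared members and in wholly shared members, for the 3 groups (x axis). Each point is 1 library, and the black mark beside the points is the group mean with its SD; for all members the groups do not overlap, from 2.01% to 2.08% under drought up to 2.79% to 2.85% in well-watered roots.

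How the shared reads were divided can be read from the counts. If 2 models shared reads only with each other and every shared read was counted for both, their shared reads would be the same whole number in each library, and no such group of members was found. Instead, wholly shared members of the same length had nearly equal reads. Of 58 pairs of wholly shared members with the same length, 56 (96.6%) split their reads evenly over the 9 libraries, taken as a chi-square p over 0.001. Of 9812 pairs with different lengths, 27 (0.275%) did so. In such a pair each model thus held close to 50% of the reads of both. The models of an evenly divided set are called copies below. That name rests on length and counts alone, since no sequence of these models was used here.

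By this rule, which was chosen after the counts were seen, 106 of the 141 wholly shared members fell into 52 sets, 50 of them pairs and 2 of them triples. Within a pair, the first copy held 46.3% to 53.5% of the reads, and in the 14 pairs with at least 10000 reads it held 49.7% to 50.4%. The sets ran from 228 to 2667 bases in length and held 21.1% of the members' reads. The other 35 wholly shared members had no such partner among the members. The copies of a set are not independent measurements, since they are 1 pool of reads divided between the copies.

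The set with the most reads was a pair of 802 bases. Its first copy had 3766, 9208 and 7652 reads in culture, 85, 87 and 47 in well-watered roots and 259, 206 and 114 under drought. Its second copy had 3816, 9033 and 7465 reads in culture, 67, 98 and 46 in well-watered roots and 250, 185 and 104 under drought. Library by library both copies had nearly the same reads, which the rule for sets required. Tests here are edgeR's quasi-likelihood test, fitted over all models with Benjamini-Hochberg adjustment. Summed, the pair differed from cultures by -2.01 on the log2 scale in well-watered roots (edgeR adjusted p = 5.58e-05) and by -2.57 in drought roots (edgeR adjusted p = 0.000221), and between regimes by -0.48 (edgeR adjusted p = 0.278).

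The next sets by reads were pairs of 618 and 1236 bases. The 618-base pair stood at 520, 442 and 451 CPM in culture, where CPM is reads per 1000000 total gene reads of the library, at 404, 309 and 231 CPM in well-watered roots and at 267, 368 and 252 CPM under drought. Its libraries were below the cultures in both root groups, and the log2 difference of drought roots from cultures was -0.70 (edgeR adjusted p = 0.0136), a call lost without culture replicate 1 (0.0533) or culture replicate 3 (0.0528). The 1236-base pair stood at 662, 428 and 446 CPM in culture, 175, 171 and 192 CPM in well-watered roots and 145, 86.9 and 167 CPM under drought. It differed from cultures by -1.30 in well-watered roots (log2, edgeR adjusted p = 0.00169) and by -1.95 in drought roots (log2, edgeR adjusted p = 0.00284).

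**Figure D3:**
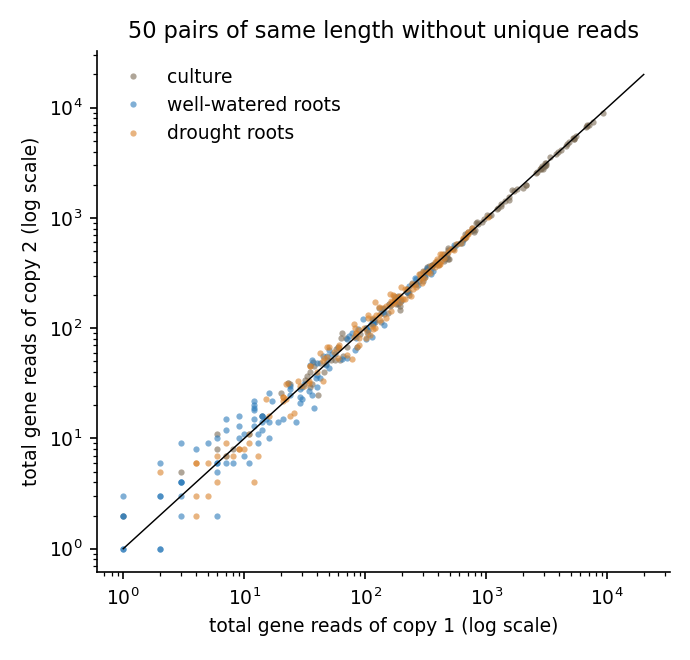
Total gene reads of the second copy (y axis, log scale) against the first copy (x axis, log scale) of the 50 pairs of the same length kept as evenly divided. There is 1 point per pair and library where both copies had a read, colored by group. These pairs were chosen for even reads, so the choice itself put the points along the line of equal reads. The points lie tightly in the deep cultures and more loosely at the low counts of the root libraries.

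The level of sharing of single members held across groups with few exceptions. Over members with at least 20 reads in a group, the median share was 83.4% in cultures (422 members), 86.4% in well-watered roots (311) and 89.1% under drought (382). Among partly shared members with at least 20 reads in both groups, the share moved by at least 20 points in 8 of 197 between well-watered roots and cultures, 4 in each direction. Between drought roots and cultures it rose by that much in 9 and fell in 10 of 248, and between drought and well-watered roots it rose in 5 and fell in 5 of 200. These are descriptions at low counts. The 1710-base model just inside the limit, for example, was 54.6% shared in cultures, 75.0% in well-watered roots on 32 reads and 20.3% under drought on 69 reads. For such a member the total mixes its own reads and its partners' in a proportion that is not fixed.

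Between watering regimes, more members were lower than higher in drought roots. Each pair of groups was tested by itself, and a member was called where the Benjamini-Hochberg adjusted p was under 0.05. Of 439 members, 341 had enough reads to be tested, and 60 were called, 17.6% of those tested, beside a background of 19.8% of all models tested. In drought roots 16 members were higher (4.69%, background 9.53%) and 44 were lower (12.9%, background 10.2%), while 281 were not called. The median log2 difference over tested members was -0.04, against 0.08 over all models tested, and the middle 50% of the members ran from -0.91 to 0.58. A difference of at least 4-fold was fitted for 11 of the higher and 20 of the lower members. The share of all models at that size was not counted, so these counts have no background.

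Under each of 17 other settings, the members' share called higher in drought roots lay below the share over all models, and their share called lower lay above it. These shares come from the same libraries each time. The count itself depended on single libraries: 60 became 39 when either well-watered replicate 2 or well-watered replicate 3 was left out. The 16 higher members became 8 without drought replicate 1, 9 without replicate 2 of the well-watered roots and 10 without their replicate 3, and 6 with limma-voom. The 44 lower members became 29 without well-watered replicate 3 and 65 with DESeq2's Wald test, and all 9 libraries fitted together gave 24 higher and 70 lower.

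The 98 members left out of the test had a median of 23 reads over the 6 root libraries together, and at most 390. Over all 9 libraries their median total was 202.5 reads, but 16 of them had at least 1000 reads, and 12 had no read in any of the 6 root libraries. In CPM, 62 of the 439 members were above every well-watered library in all drought libraries (background 23.6% of models with at least 100 reads) and 75 were below (background 15.5%).

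Wholly and partly shared members were both called less often higher than lower. Of 109 wholly shared members tested, 2 rose and 13 fell under drought, 13.8% called in either direction. Of 232 partly shared members tested, 14 rose and 31 fell, 19.4% called. Over all models tested, 9.53% were higher and 10.2% lower, 19.8% in either direction. Since the copies of a set divide 1 pool of reads, the counts were also made with each set summed to 1 feature. The 299 features tested then gave 16 higher (5.35%, background 9.53%) and 38 lower (12.7%, background 10.2%). Where all copies of a set were tested, 40 of 41 sets gave each copy the same call. Copies were put in a set for their even reads in these libraries, so like calls follow from that rule.

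The unique reads alone gave a smaller count in the same directions. They allowed a test of 145 members, of which 6 were higher and 21 lower in drought roots, beside 9.85% and 10.5% of all models tested on unique reads. Of the 145 members, 25 were called in the same direction by total and by unique reads, none was called in opposite directions, 16 were called by total reads only and 2 by unique reads only.

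**Figure D4:**
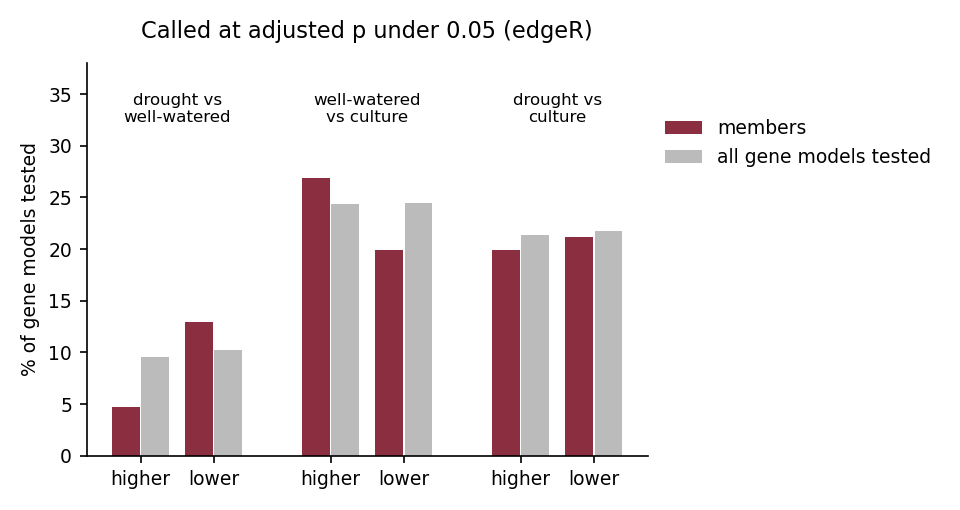
Percent of tested gene models called at an adjusted p under 0.05 (y axis) as higher or lower in each of the 3 comparisons (x axis), for members and for all models tested. Between regimes members were called higher in 4.69% and lower in 12.9%, beside 9.53% and 10.2% of all models; in well-watered roots against cultures they were called higher in 26.9% and lower in 19.9%, beside 24.4% and 24.5%.

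Rising most in drought roots was jgi|Tercla1|1243534|, a model of 619 bases with 65.9% of its reads shared. Its level was 12.5, 40.9 and 48.7 CPM in culture, 1.499, 0 and 1.15 CPM in well-watered roots and 291, 630 and 291 CPM under drought. It was thus nearly absent from well-watered roots, with 3 reads in all, and highest in drought roots, with no overlap among the 3 groups. The pooled ratio of drought to well-watered roots was 495 (exact 95% interval 169 to 2402, counting error only), and edgeR fitted a log2 difference of 8.77 ± 0.65 (SE), adjusted p = 2.41e-05. Leaving out well-watered replicate 1 or 2 gave a ratio of 969 or 284, and the call held in all 17 alternatives.

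The other named rise, jgi|Tercla1|1200675|, rested on few reads. This model of 1975 bases, 60.4% shared, had no read in well-watered roots and 24, 57 and 34 reads under drought, or 4.39, 16.1 and 9.73 CPM, while the cultures had 0, 19 and 0 reads. Drought roots were at least 11.8-fold higher, with 3 reads over the group set as the floor (edgeR adjusted p = 0.0229). The model met the minimum of total reads only with its drought reads. This rise thus describes a model that the rule admitted by its high group. Leaving out well-watered replicate 1 or 2 lowered the bound to 7.68 or 6.75. The call was lost when well-watered replicate 2 (edgeR adjusted p = 0.0744) or 3 (edgeR adjusted p = 0.0566) was left out, and 8 of the 13 alternatives that could test this member called it.

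Falling most was jgi|Tercla1|1180392|, a model of 2380 bases with 80.9% of its reads shared. Its level was 25.6, 25.6 and 27.1 CPM in culture, 59.97, 199 and 249 CPM in well-watered roots and 1.83, 2.26 and 2.58 CPM under drought. The cultures lay between the 2 root groups, and no group overlapped another. The fitted log2 difference of drought from well-watered roots was -6.42 ± 0.62 (SE), edgeR adjusted p = 0.000109, and all 17 alternatives called it.

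The second fall, jgi|Tercla1|1244865|, had a like pattern. This model of 2413 bases, 79.3% shared, stood at 71.6, 49.8 and 54.9 CPM in culture, 87.7, 432 and 407 CPM in well-watered roots and 10.6, 0 and 7.44 CPM under drought. The well-watered libraries spread widely but all lay above the cultures, and the drought libraries all lay below. The fitted log2 difference between regimes was -5.79 ± 1.03 (SE), edgeR adjusted p = 0.00440, and -6.55 without drought replicate 1 (edgeR adjusted p = 0.0171). With the replicate number as a block the edgeR adjusted p was 0.0536.

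Of the 43 sets tested, 7 were called between regimes when their copies were summed, a setting chosen after the data were seen. Of these, 2 were higher and 5 lower in drought roots. Of all 7987 models and sets tested in that setting, 761 were higher (9.53%) and 818 lower (10.2%). The pair of 1105 bases rose from 22.5, 18.4 and 29.9 CPM in well-watered roots to 71.3, 177 and 73.0 CPM under drought, a log2 difference of 2.04 ± 0.43 (SE, edgeR adjusted p = 0.00851, and 0.0524 without well-watered replicate 2). The pair of 591 bases rose from 14.2, 37.9 and 13.8 CPM to 62.0, 127 and 61.3 CPM, a log2 difference of 1.71 ± 0.49 (SE, edgeR adjusted p = 0.0352). Cultures held 188, 197 and 204 CPM of that pair, above every root library. That log2 difference was 2.43 without well-watered replicate 2. The second call was fragile, with an edgeR adjusted p of 0.0913 without well-watered replicate 1, 0.140 without well-watered replicate 3, 0.0529 without drought replicate 1 and 0.0811 without drought replicate 2.

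The other five sets were lower in drought roots, and 4 of them were above the culture level in all well-watered libraries by a wide margin. The set of 875 bases had 32.5, 27.2 and 30.3 CPM in culture, 837, 751 and 775 CPM in well-watered roots and 374, 186 and 328 CPM under drought. It fell by 1.55 ± 0.33 on the log2 scale between regimes (SE, edgeR adjusted p = 0.00870), and in both regimes it stayed above culture, by log2 differences of 4.92 (edgeR adjusted p = 3.44e-06) and 3.31 (edgeR adjusted p = 0.000311). The set of 1176 bases followed the same order, with 67.2, 55.4 and 57.8 CPM in culture, 408, 674 and 755 CPM in well-watered roots and 189, 82.4 and 220 CPM under drought. It fell by 2.06 ± 0.43 on the log2 scale (SE, edgeR adjusted p = 0.00776). Its log2 difference of drought roots from cultures, 1.45 (edgeR adjusted p = 0.0182), was lost with any culture, drought replicate 1 or drought replicate 3 left out (edgeR adjusted p from 0.0594 to 0.0685).

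The sets of 2045 and 1492 bases fell further. The former had 7.13, 8.85 and 7.80 CPM in culture, 31.5, 123 and 144 CPM in well-watered roots and 2.56, 12.1 and 5.15 CPM under drought, where its range covered that of the cultures. It fell by 4.12 ± 0.71 on the log2 scale (SE, edgeR adjusted p = 0.00291), and by 4.87 without drought replicate 2. The latter was almost unread in culture, at 0.189, 0.440 and 0.567 CPM, and stood at 55.5, 228 and 290 CPM in well-watered roots and 8.23, 0 and 4.58 CPM under drought. It fell by 5.56 ± 0.99 on the log2 scale between regimes (SE, edgeR adjusted p = 0.00462), and by 6.54 without drought replicate 1. Its copies together had 3, 14 and 17 reads in culture and 45, 0 and 16 under drought. Both copies thus met the minimum of total reads only with their well-watered reads. This fall describes models that the rule admitted by their high group. In both sets well-watered replicate 1 was the lowest of the well-watered libraries.

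The set of 2475 bases changed less and had close replicates. It stood at 217, 194 and 204 CPM in culture, 352, 361 and 367 CPM in well-watered roots and 179, 155 and 161 CPM under drought. The 3 groups did not overlap, and the fall between regimes was 1.27 ± 0.25 on the log2 scale (SE, edgeR adjusted p = 0.00555).

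**Figure D5:**
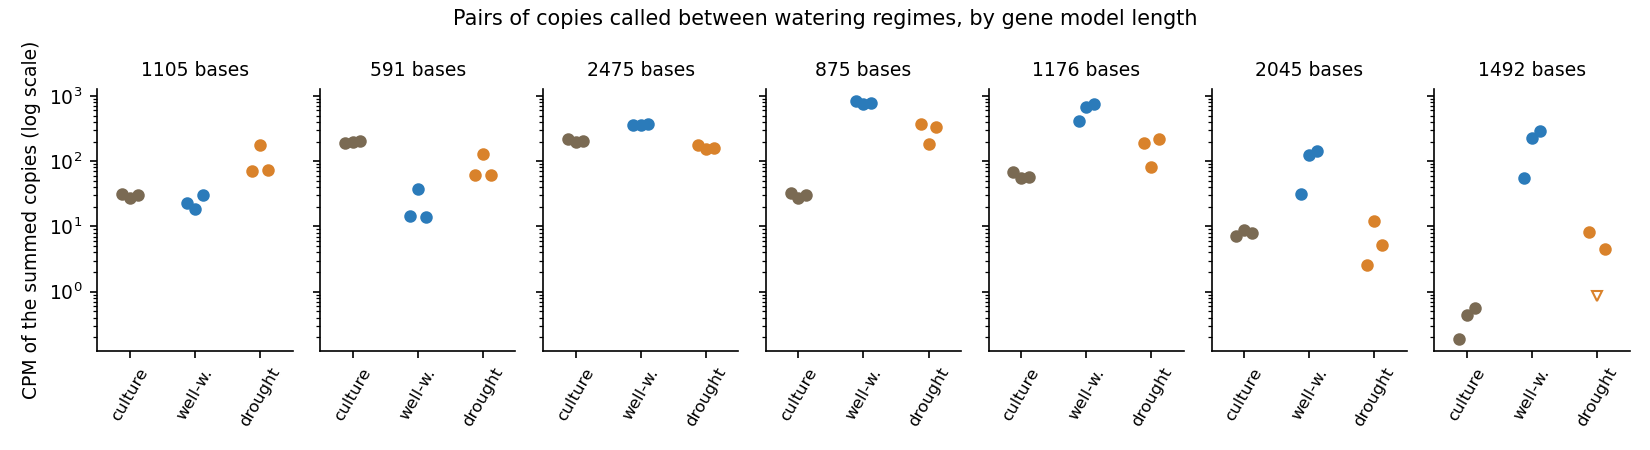
CPM of the summed copies (y axis, log scale) in each library of the 3 groups for the 7 sets called between watering regimes, 1 panel per set, headed by the length of its models. Points are libraries, and an open triangle is a library without a read drawn at the level of 3 reads. From well-watered to drought roots 2 sets rose and 5 fell. Both copies of the set of 1492 bases met the minimum of total reads only with their well-watered reads.

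In well-watered roots against cultures, members were called about as often as all models tested. Of 402 members tested, 188 were called, 46.8% beside a background of 48.9%. Well-watered roots were higher for 108 members (26.9%, background 24.4%) and lower for 80 (19.9%, background 24.5%), and 214 were not called. The fitted difference was at least 4-fold for 60 higher and 40 lower members, with no background counted at that size. The median log2 difference was 0.07 against -0.11 over all models. The 80 lower members became 53, 51 and 50 without culture replicate 1, 2 and 3. Where libraries were scaled by their totals, 93 higher and 93 lower members were called. That scaling moved the median of all models by -0.20 on the log2 scale. The share of all models called in each of these fits is not given here, so these counts have no background. In CPM, 104 members were above every culture in all well-watered libraries (background 22.2%) and 147 were below (background 39.9%).

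With sets summed, 97 of 354 features were higher (27.4%, background 24.4%) and 69 lower (19.5%, background 24.4%) in well-watered roots. Of 208 members with enough unique reads, 53 were higher (25.5%, background 24.4%) and 33 lower (15.9%, background 24.5%) by those reads alone. The higher shares were thus near the background. Total and unique reads called 82 members in the same direction and none in opposite directions, while 31 were called by total reads only and 4 by unique reads only.

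The 2 largest rises from culture to well-watered roots were of models without any read in culture. Both met the minimum of 100 total reads through root reads alone, so these rises describe models that the rule admitted by their high groups. The wholly shared model jgi|Tercla1|1243149|, of 1304 bases, stood at 36.7, 82.0 and 178 CPM in well-watered roots and 7.31, 42.0 and 71.9 CPM under drought. Well-watered roots were at least 2281-fold higher than cultures (edgeR adjusted p = 0.000242), with 3 reads over the cultures as the floor, and at least 1346-fold and 1400-fold without culture replicates 2 and 3. The 441-base model jgi|Tercla1|1280752|, 97.9% shared, stood at 38.2, 52.6 and 26.4 CPM in well-watered roots and at least 1080-fold above cultures (edgeR adjusted p = 5.27e-05), or 637-fold and 663-fold without culture replicates 2 and 3. In drought roots it was uneven, at 2.56, 31.3 and 0 CPM.

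The 2 largest falls were the copies of 1 pair, jgi|Tercla1|1281898| and jgi|Tercla1|1279069|, of 378 bases. Summed over both copies the cultures held 215, 161 and 137 CPM, and no root library of either regime held a read of either copy. Both copies met the minimum of 100 total reads through culture reads alone, so these falls describe models that the rule admitted by their high group. Well-watered roots were at least 104-fold lower for each copy (edgeR adjusted p = 0.000115 and 7.20e-05). The bounds were 68.2 and 67.6 with well-watered replicate 1 left out, and 59.99 and 59.5 with replicate 2 left out. They are 1 measurement, not 2.

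In drought roots against cultures, 411 members were tested and 169 called, 41.1% beside a background of 43.2%. Drought roots were higher for 82 members (19.95%, background 21.4%) and lower for 87 (21.2%, background 21.8%), and 242 were not called. In total reads these shares were near those of all models in both directions. The fitted difference was at least 4-fold for 46 higher and 44 lower members, with no background counted at that size. The median log2 difference was -0.09 against -0.05 over all models. In CPM, 96 members were above every culture in all drought libraries (background 26.7%) and 144 were below (background 32.5%). With sets summed, 73 of 361 features were higher (20.2%, background 21.4%) and 77 lower (21.3%, background 21.8%). Unique reads called 30 of 202 members higher (14.9%, background 21.5%) and 40 lower (19.8%, background 22.0%), so by those reads the higher share lay below that of all models.

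The largest rise from culture to drought roots was again that of jgi|Tercla1|1243149|, at least 911-fold (edgeR adjusted p = 0.00303). The bound was 1472 without drought replicate 1, 543 without drought replicate 3, and 538 and 559 without culture replicates 2 and 3. The next was jgi|Tercla1|437100|, of 1365 bases and 61.6% shared, with 0, 2 and 1 reads in the cultures. It stood at 22.5, 16.5 and 23.0 CPM in well-watered roots and 41.5, 28.5 and 39.8 CPM under drought. Its pooled ratio of drought roots to cultures was 967 (exact 95% interval 329 to 4707, counting error only), with an edgeR adjusted p of 5.92e-05. Without culture replicate 2 the ratio was 1712. With 77 reads in well-watered roots and 467 under drought, this model met the minimum of total reads only with its drought reads. Its rise thus describes a model that the rule admitted by its high group.

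The largest fall from culture to drought roots was that of jgi|Tercla1|1147375|, of 675 bases and 98.5% shared. It stood at 239, 205 and 177 CPM in cultures and had no read in drought roots, while well-watered roots held 0, 3 and 0 reads. Drought roots were at least 838-fold lower (edgeR adjusted p = 5.92e-05), and 472-fold with drought replicate 1 left out. Its few unique reads fell as well, by 8.55 on the log2 scale (edgeR adjusted p = 0.00735). The next fall was the copy jgi|Tercla1|1281898| named above, at least 340-fold lower, and 192-fold with drought replicate 1 left out (edgeR adjusted p = 0.000206).

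The well-watered and drought comparisons share the same 3 cultures, so their values are set side by side and not related to each other. Across all 9 libraries, every culture was above every root library for 91 members (background 22.1%). Every well-watered library was above all others for 50 members (background 9.11%), and every drought library for 31 (background 12.1%).

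The members with the highest levels are described in RPKM, which takes model length into account. The model with the highest mean CPM among members in cultures, of 1628 bases and 63.8% shared, stood at 726, 651 and 694 RPKM in culture, 467, 805 and 788 in well-watered roots and 211, 175 and 191 under drought. Cultures and well-watered roots overlapped, and drought roots were lower than both. The log2 difference was -2.00 ± 0.34 (SE, edgeR adjusted p = 0.00265) from well-watered roots and -1.85 ± 0.17 (SE, edgeR adjusted p = 0.000231) from cultures. The difference of well-watered roots from cultures was 0.22 (edgeR adjusted p = 0.519), and 0.42 (edgeR adjusted p = 0.0114) without well-watered replicate 1.

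A model of 1971 bases, 68.3% shared and the third in cultures, fell in 2 steps. It stood at 263, 380 and 408 RPKM in culture, 37.7, 116 and 85.1 in well-watered roots and 17.2, 10.2 and 11.2 under drought, with no overlap. Well-watered roots differed from cultures by -1.90 ± 0.41 (log2, SE, edgeR adjusted p = 0.00594) and drought roots from well-watered roots by -2.79 ± 0.46 (log2, SE, edgeR adjusted p = 0.00243). The second model in cultures, of 913 bases and 50.4% shared, was lower in drought roots than in well-watered roots by a narrow margin: its log2 difference was -1.002 (edgeR adjusted p = 0.0469), and the adjusted p was 0.0543 to 0.177 when any 1 of the 6 libraries was left out.

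Highest by mean CPM in well-watered roots were models of 1161 and 910 bases. The 910-base model, 83.5% shared, stood at 137, 226 and 212 RPKM in culture, 1617, 1364 and 1359 in well-watered roots and 437, 295 and 483 under drought. It rose in well-watered roots by 3.12 ± 0.25 (log2 from cultures, SE, edgeR adjusted p = 4.27e-05) and was lower in drought than in well-watered roots by a log2 difference of -1.97 ± 0.31 (SE, edgeR adjusted p = 0.00196). In drought roots it was above cultures by 1.07 ± 0.28 (log2, SE, edgeR adjusted p = 0.0202), a call lost without culture replicate 1 (0.0666) or 3 (0.0522), without drought replicate 1 (0.0728) or 3 (0.0673), and in its unique reads (edgeR adjusted p = 0.5002).

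The 1161-base model, 82.0% shared, turned on 1 drought library. It stood at 569, 613 and 580 RPKM in culture, 968, 1592 and 1675 in well-watered roots and 770, 215 and 783 under drought. Drought replicate 2 was below all cultures, and the other two drought libraries were above them. The rise in well-watered roots from cultures was 1.49 ± 0.27 (log2, SE, edgeR adjusted p = 0.00236). Drought roots differed from well-watered roots by -1.41 (log2, edgeR adjusted p = 0.0738, and 0.0316 in the fit of all 9 libraries), and from cultures by 0.02 (log2, edgeR adjusted p = 0.981), and by 0.40 (edgeR adjusted p = 0.0146) without drought replicate 2.

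Other models stood high in drought roots. The model of 909 bases, 99.5% shared, stood at 145, 146 and 154 RPKM in culture, 558, 254 and 259 in well-watered roots and 769, 499 and 914 under drought, where it differed from cultures by 2.29 ± 0.26 (log2, SE, edgeR adjusted p = 0.000650). Its unique reads gave an edgeR adjusted p of 0.460 for that difference. Between regimes it differed by 0.91 (log2, edgeR adjusted p = 0.112), and by 1.30 without well-watered replicate 1 (edgeR adjusted p = 0.0228) or 1.14 without drought replicate 2 (edgeR adjusted p = 0.0389). The model of 2185 bases, 52.6% shared, stood at 82.0, 115 and 117 RPKM in culture, 41.5, 64.4 and 49.98 in well-watered roots and 264, 301 and 238 under drought. Drought roots exceeded well-watered roots by 2.20 ± 0.30 (log2, SE, edgeR adjusted p = 0.000753) and cultures by 1.34 ± 0.19 (log2, SE, edgeR adjusted p = 0.00155), and the groups did not overlap.

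Replicate libraries of roots spread more for members than for other models. Among models that reached 10 CPM in a library of the group, the ratio of the highest to the lowest library was at least 10, with 3 reads as the floor, for 2 of 271 members in cultures (0.738%, against 0.118% of 6755 other models). It was so for 21 of 304 members in well-watered roots (6.91%, against 0.780% of 7054) and for 54 of 307 under drought (17.6%, against 3.49% of 7239). The floor of 3 reads was 1.83 to 3.45 CPM in well-watered roots and 0.548 to 0.859 CPM in drought roots. A model near 10 CPM could thus not reach this ratio in well-watered roots, and the percentages are not comparable between groups. The median ratio differed little, at 1.23, 2.05 and 2.07 for members and 1.20, 1.81 and 1.72 for other models in cultures, well-watered and drought roots. The wide spread was thus that of a minority of members.

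Each drought library was the lowest for some of these members. Of the 54 members, the lowest library was drought replicate 1 for 16, replicate 2 for 25 and replicate 3 for 13, whereas among other models replicate 2 was the lowest for 185. A library without any read was present for 36 of the 307 members in drought roots (11.7%, against 1.82% of other models) and for 36 of 304 in well-watered roots (11.8%, against 1.08%). Counting each set of copies once left 53 wide members in drought roots and 21 in well-watered roots. In unique reads, 15 of 121 members (12.4%, against 3.57%) were this wide in drought roots, and 2 of 125 (1.60%, against 0.777%) in well-watered roots. The part of depth, which was lowest in the root groups, in these spreads was not tested.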

How the data were processed

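RNA-seq reads of 9 libraries were counted by the authors, and the deposited tables give whole-number counts per gene model (total and unique gene reads) and RPKM values per the file headers. The submitters' processing notes name FastQC, Bowtie2 2.3.0 and SAMtools 1.7 without their roles. The counting program, strand use and the treatment of shared reads are, in the sources used here, not given. Library size was the sum of total gene reads, and CPM is per 1000000 of it. Model length was solved from counts and RPKM (largest relative deviation from a whole number 4.65e-08).

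For each pair of groups, the 6 libraries were fitted over all models with edgeR 4.0.16 in R 4.3.3 (filterByExpr, TMM, robust quasi-likelihood F test, Benjamini-Hochberg adjustment, threshold 0.05). The scripts were tested on simulated counts. Alternatives were DESeq2 size factors and the DESeq2 1.42.0 Wald test, limma 3.58.1 voom, scaling by library total, no filter or at least 10 reads in 3 libraries, a joint fit, unique reads, reads thinned to the smallest library, a replicate block, copies summed or counted once, and each library left out. The labels describe biological replicates, and p-values measure the spread between these samples. No sequence of these models was used here.

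Members and lists were chosen with earlier results of these data known. Named by rule were, per comparison, the 2 largest fitted rises and 2 largest falls among called members whose higher group averaged 10 CPM or more and whose groups did not overlap, the 3 members highest in mean CPM in each group, and the 3 sets with the most reads. The planned rule for sets, identical shared reads in every library, found none; even division was used instead, and sets called between regimes were named after their values were seen. With 3 reads as a floor, bounds and exact 95% intervals cover counting error only.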

Additional observations from a re-analysis of the deposited data

Results flagged for a closer look

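For 9 of the members described above, the difference of roots from cultures differed between the watering regimes by the direct edgeR quasi-likelihood test of drought against well-watered roots. Both differences use the same cultures, so the direct test is the evidence and the values against cultures are given beside it only.

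Called in opposite directions against cultures were 4 of them. The model jgi|Tercla1|1243534| differed between regimes by 8.77 (log2), being below cultures in well-watered roots (log2 difference -5.22, edgeR adjusted p = 0.00226) and above them in drought roots (3.52, edgeR adjusted p = 0.00255). The model jgi|Tercla1|1180392| differed by -6.42, with 2.93 (edgeR adjusted p = 0.00152) in well-watered and -3.58 (edgeR adjusted p = 0.00025) in drought roots. The model jgi|Tercla1|1244865| differed by -5.79, with 2.64 (edgeR adjusted p = 0.00486) and -3.22 (edgeR adjusted p = 0.0232). The 2185-base model differed by 2.20, with -0.79 (edgeR adjusted p = 0.0297, lost at 0.107 without culture replicate 2, 0.114 without culture replicate 3 and 0.0735 without well-watered replicate 3) and 1.34 (edgeR adjusted p = 0.00155).

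Among the others, jgi|Tercla1|1200675| differed between regimes by 7.72 on the log2 scale. That fitted value rests on no read in well-watered roots and is no bound. The model met the minimum of total reads only with its drought reads, as described above. On the same scale the difference was -2.00 for the 1628-base model and -1.002 for the 913-base model. It was -2.79 for the 1971-base model and -1.97 for the 910-base model.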

How the results depend on the processing

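The number of members called between regimes, 60, moved to 94 in the joint fit of 9 libraries and 27 in unique reads, which could test 145 members against 341 (18.6% called against 17.6%, with 20.3% of all models in unique reads), and ran from 39 to 62 with 1 library left out. Against cultures, 188 called in well-watered roots became 86 of 208 tested in unique reads (41.3% against 46.8%, all models 48.9%) and 135 to 219 with a library left out, and 169 called in drought roots became 70 of 202 (34.7% against 41.1%, all models 43.5%) and 115 to 237. The members' share of reads kept its order without the 50 other models with the most reads (3.00% in cultures, 3.30% in well-watered and 2.32% in drought roots) and in unique reads (0.493%, 0.552% and 0.389%). Same-numbered libraries did not pair (correlations of their deviations from -0.041 to 0.102 over 9207 models, 6 of 18 highest with their own number). With the replicate block, 50, 162 and 137 members were called. For the 33 tests of single named members, 491 of 524 values under alternatives kept direction and side of the threshold, 27 lost the call and 6 gained it, and none reversed. With every library thinned to the smallest, 869998 reads, 59, 135 and 122 members were called of 253, 264 and 263 tested. Counts in the joint fit, with a library left out, with the replicate block and with thinned libraries are given without the share of all models in the same fit. Nothing about the members beside all models is read from those counts. Over 17 alternatives, 1.76% to 6.22% of members were higher and 7.82% to 19.1% lower between regimes. All models gave 5.23% to 12.5% and 4.96% to 15.3%. Well-watered roots against cultures gave 22.7% to 31.1% and 15.2% to 24.1%, and all models 20.1% to 28.3% and 16.8% to 30.3%. Drought roots against cultures gave 13.6% to 25.2% and 14.9% to 29.6%, and all models 14.0% to 28.6% and 14.0% to 31.6%.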
